A study of Mus musculus with 212 samples.

Results

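REV-ERB and ROR nuclear receptors are here the 4 genes Nr1d1, Nr1d2, Rora and Rorb, picked by symbol from the 47631 genes of an RNA-seq table of mouse skin fibroblasts. All 4 were found in the table, and the levels of 3 of them passed the filter on low values. Poly(A) RNA was sequenced from C57BL/6 cultures that were either WT or Bmal1-/-, that is, without the clock transcription factor BMAL1 (gene symbol Arntl). Confluent cells of both genotypes had received 100 nM dexamethasone, a glucocorticoid that sets their clocks to a common time, for 15 min, and were first harvested 48 h later. Each genotype gave courses named AM and PM (17 time points, every 3 h) and courses at 27, 32 and 37 °C (24 time points, every 2 h), so there were 10 courses. The meaning of AM and PM is not in the labels, nor is the number of animals or cell preparations behind either genotype. After dexamethasone all cultures were kept in constant darkness in HEPES-buffered medium, at 37 °C unless another temperature is named. Times are given as circadian time (CT) in hours, as labelled. The series' title asks whether circadian rhythms persist without Bmal1.

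REV-ERBα (Nr1d1) and REV-ERBβ (Nr1d2) are nuclear receptors that bind heme and repress transcription through the corepressor NCoR and the deacetylase HDAC3. RORα (Rora) and RORβ (Rorb) activate transcription from the same DNA elements, and Arntl itself is a classic target of both kinds of receptor. In the standard model of the clock, BMAL1 and CLOCK drive Nr1d1 and Nr1d2 through E-box elements, and REV-ERB in turn represses Arntl, so that these transcripts cycle in opposite phase. Rora is widely expressed in skin and other peripheral tissues, whereas Rorb is known mainly from the nervous system and bone.

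In GRCm38, Nr1d1 (ENSMUSG00000020889) lies at chr11:98767932-98775333 on the minus strand, and Nr1d2 (ENSMUSG00000021775) at chr14:18204054-18239127 on the minus strand. Rora (ENSMUSG00000032238) lies at chr9:68653786-69388246 on the plus strand, and Rorb (ENSMUSG00000036192) at chr19:18930605-19111196 on the minus strand. The 3′ end of Nr1d1 overlaps Thra, the thyroid hormone receptor α gene on the opposite strand, by 263 of the 3077 exon bases of Nr1d1. The sources used here do not give whether the authors counted reads by strand, so reads in those bases cannot be assigned to either gene with certainty. Rora shares 82 exon bases with the antisense gene Gm15511, which averaged 0.0122 FPKM.

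The sequences directly upstream of the RefSeq start sites (GRCm38.p6) are shown for the 3 tested genes, because Nr1d1 and Nr1d2 moved with genotype and time while Rora was not called rhythmic in any course. They are written 5′ to 3′ on the gene's own strand, with matches to any searched motif in capitals. The Nr1d1 stretch is chr11:98775378-98775627, the Nr1d2 stretch is chr14:18239128-18239356 (without the bases that the annotation places inside the gene), and the Rora stretch is chr9:68653536-68653785.
Nr1d1: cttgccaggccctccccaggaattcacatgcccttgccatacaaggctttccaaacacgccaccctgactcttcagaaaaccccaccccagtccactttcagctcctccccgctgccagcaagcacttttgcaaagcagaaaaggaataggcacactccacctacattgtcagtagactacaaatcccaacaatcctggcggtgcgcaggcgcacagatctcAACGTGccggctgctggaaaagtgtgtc
Nr1d2: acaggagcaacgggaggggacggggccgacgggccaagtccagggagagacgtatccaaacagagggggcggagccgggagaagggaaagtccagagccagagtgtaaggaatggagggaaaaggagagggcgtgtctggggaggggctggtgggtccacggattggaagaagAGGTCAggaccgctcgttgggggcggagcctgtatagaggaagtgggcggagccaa
Rora: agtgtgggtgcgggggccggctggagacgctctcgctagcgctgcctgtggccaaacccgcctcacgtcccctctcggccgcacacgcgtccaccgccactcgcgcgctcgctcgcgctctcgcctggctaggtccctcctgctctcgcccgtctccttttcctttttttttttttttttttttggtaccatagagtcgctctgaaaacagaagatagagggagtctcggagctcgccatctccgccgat
Motifs were searched on both strands in the 250 bases before each start. The E-box CACGTG was found in none of these 3 windows, and 6.02% of 32851 promoter windows of that length held it. The E-box variant CACGTT was found once near Nr1d1, on the opposite strand and 28 to 23 bases before the start, and 3.85% of windows held it. The receptors' own core element AGGTCA was found once near Nr1d2, 77 to 72 bases before the RefSeq start, and 14% of windows held it. This distance counts in the full 250 bases, whereas the printed Nr1d2 stretch has 229 and ends short of that start. The D-box TTATGNAA, which binds DBP and its relatives, was found in none of the 3 windows, against 3.07% of all windows. No match overlapped another, and a match is only a description of these letters in these windows.

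Values are FPKM, fragment counts scaled to transcript length and library size, so levels can be compared between genes per length. Each time point has 1 library, so the SD given is the spread over the time points of a course and includes any rhythm. The depth of a library, estimated from the FPKM that 1 read gives, ran from about 9900000 to 32100000 reads (median 23300000) and was lowest in WT AM at CT36. All 10 fibroblast markers averaged at least 1 FPKM in both genotypes, with summed levels of 6871 to 19240 FPKM in WT and 8509 to 22870 in Bmal1-/-. Markers of 8 other cell types summed to at most 41.2 FPKM in any library (macrophage, WT). Some moved with genotype: the 4 adipocyte markers summed to 0.347 to 3.64 FPKM in WT and 0.754 to 27.0 in Bmal1-/-, with Adipoq, Plin1 and Cidec under 1 FPKM in both. The 4 melanocyte markers summed to 2.72 to 21.6 in WT and 0.804 to 2.60 in Bmal1-/-, with Tyr and Dct under 1 FPKM in both. Their part in the results was not tested. The gene-level Arntl value sums reads over all exons and does not check the deletion: at 37 °C it ran from 3.59 to 8.39 FPKM in WT (median 6.33) and from 4.52 to 6.65 in Bmal1-/- (median 5.98). At 27 °C and CT14, Nr1d1 and Nr1d2 went against the genotype labels, while Rorb lay within its labelled group's range in both libraries. Rora was at 9.70 FPKM in the library labelled WT, above the rest of the course in either genotype (highest 7.04 in WT and 9.22 in Bmal1-/-). In the library labelled Bmal1-/- it was at 6.89 FPKM, within the range of either genotype. The library labelled WT had 13.2 FPKM of Nr1d1 and 5.91 of Nr1d2, below every other WT library of that course, and the library labelled Bmal1-/- had 22.4 and 16.3, above every other Bmal1-/- library of it. Cdkn1a, a cell cycle inhibitor, was likewise at 109.5 FPKM in the library labelled WT, where the rest of the course ran from 3.07 to 7.12. This pair was left out, which leaves 210 libraries and 23 time points at 27 °C, and values with it are given where they differ.

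**Figure D1:**
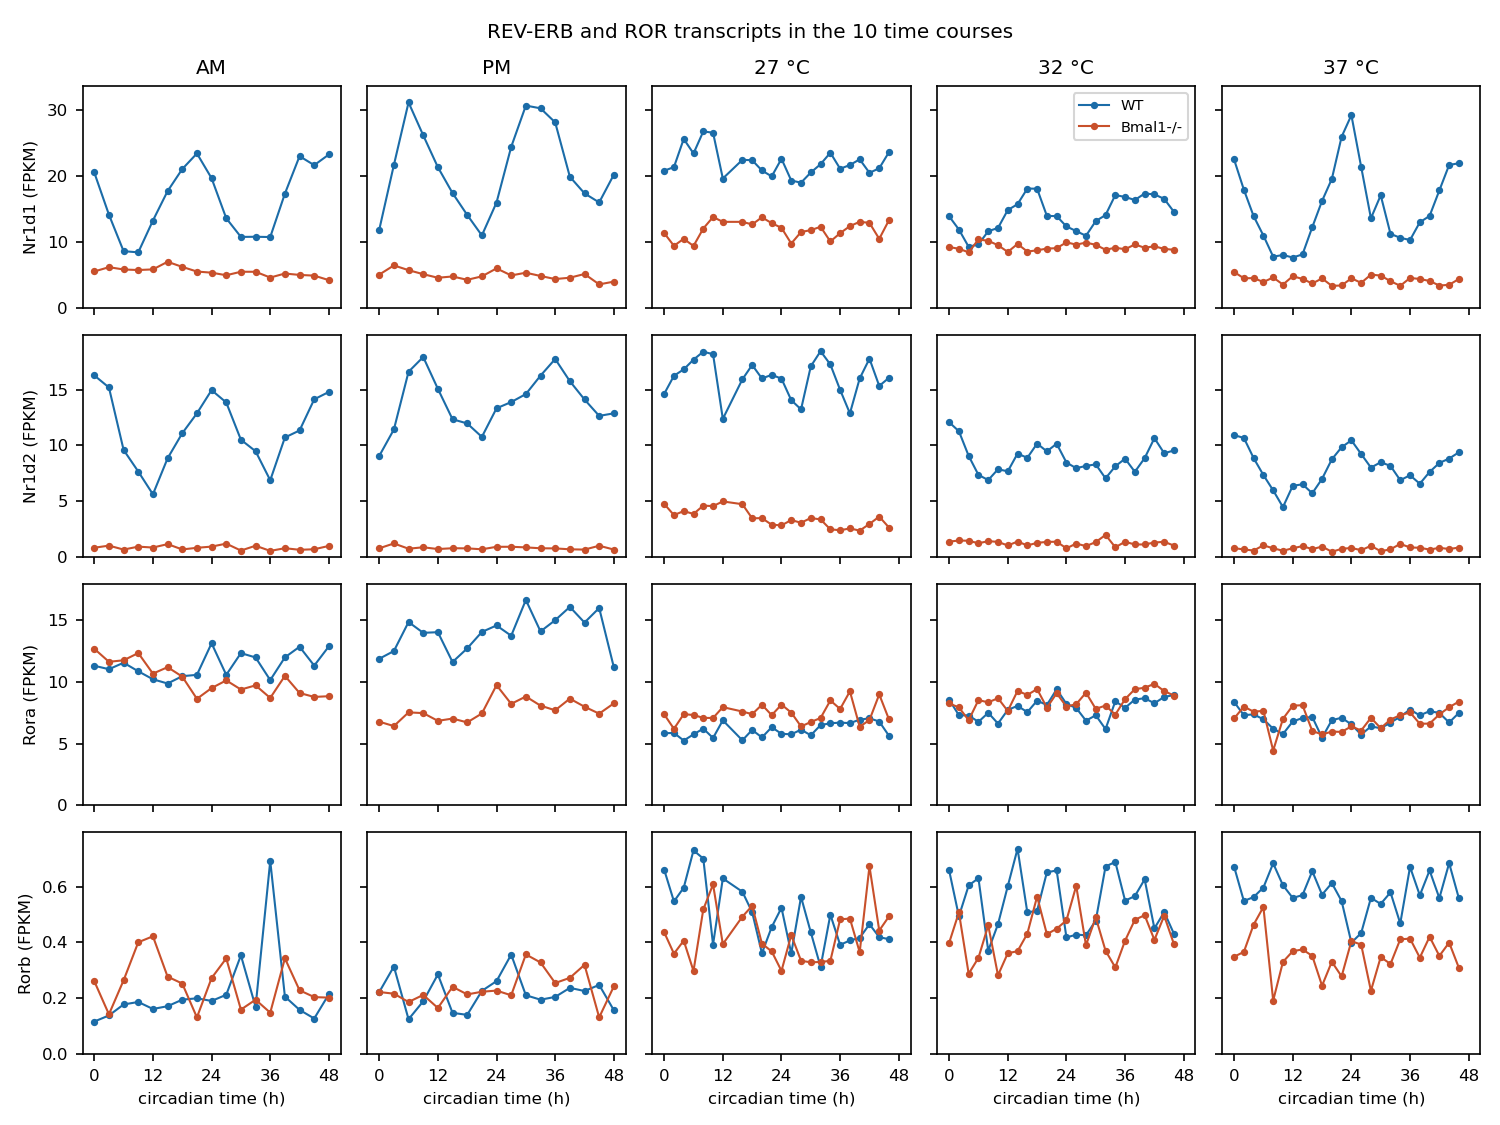
FPKM of the 4 genes (y axis, 1 scale per gene) against circadian time in hours (x axis) in the 5 courses of each genotype; each point is 1 library and the CT14 pair at 27 °C is left out. Nr1d1 and Nr1d2 of WT rise and fall in AM, PM and at 37 °C, less so at 32 °C, while both run lower and, in FPKM, flatter in Bmal1-/-. Relative to the mean, the SD of Nr1d2 was smaller in Bmal1-/- only in AM, and that of Nr1d1 was larger in Bmal1-/- at 27 °C.

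Nr1d1 and Nr1d2 were both lower in Bmal1-/- than in WT in every course, and Nr1d2 was the more reduced. In WT AM, Nr1d1 ran from 8.40 to 23.4 FPKM (median 17.3), and in Bmal1-/- AM from 4.19 to 6.97 (median 5.46). In PM it ran from 10.97 to 31.1 in WT (median 20.2) and from 3.55 to 6.42 in Bmal1-/- (median 4.82). The groups did not overlap in either course, and Bmal1-/- was lower at 17 of 17 matched times in each. Over both courses the level of Nr1d1 was 1.60 ± 0.03 (SE) lower on the log2(FPKM + 1) scale (log2 difference of -1.60, adjusted p = 2.32e-47). Fewer cells expressing a gene and less RNA per cell cannot be told apart in such bulk samples.

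Nr1d2 fell further. It ran from 5.59 to 16.3 FPKM in WT AM (median 11.1) and from 0.507 to 1.16 in Bmal1-/- AM (median 0.791). In PM the range was 9.04 to 17.9 in WT (median 13.9) and 0.624 to 1.18 in Bmal1-/- (median 0.741). The highest Bmal1-/- library thus lay below the lowest WT library in both courses, and the median ratio of Bmal1-/- to WT at matched times was 0.0646 in AM and 0.0563 in PM. The log2 difference over both courses was -2.89 ± 0.03 (SE, adjusted p = 4.91e-58), which understates the change, since 1 FPKM is added to values that are below 1 in most Bmal1-/- libraries. With 0.1 FPKM added instead it was -3.81.

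Of the 3 tested members, 2 were called lower and none higher over AM and PM, where a call required limma's adjusted p to be below 0.05, a change of 2-fold or more and the same direction in both courses. Of all genes, 14.5% passed that rule. Thra, which shares exon bases with Nr1d1, was higher in Bmal1-/- in all 5 courses with no overlap between the groups. In AM it averaged 70.7 ± 6.85 FPKM (SD, n = 17) in WT and 130.1 ± 8.33 in Bmal1-/-, the opposite direction to Nr1d1; the part of shared reads in either value was not tested.

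Rora, the activator, was nearer to equal in the genotypes and differed between AM and PM. In AM it ran from 9.85 to 13.1 FPKM in WT (median 11.3) and from 8.62 to 12.7 in Bmal1-/- (median 10.1), with overlapping groups. In PM it ran from 11.2 to 16.6 in WT (median 14.03) and from 6.41 to 9.72 in Bmal1-/- (median 7.52), with no overlap. The log2 difference was -0.14 ± 0.04 (SE, adjusted p = 0.0017) in AM and -0.79 ± 0.04 (adjusted p = 1.10e-25) in PM, so neither reached 2-fold.

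Taken separately, AM and PM each had Nr1d1 and Nr1d2 called lower, against 14.6% of all genes called in AM and 15.6% in PM. The log2 differences of Nr1d1 were -1.34 in AM and -1.87 in PM, and those of Nr1d2 were -2.71 and -3.07. The difference between the courses was itself tested after the values had been seen. It was -0.53 ± 0.06 (adjusted p = 7.49e-11) for Nr1d1, -0.36 ± 0.07 (adjusted p = 1.03e-05) for Nr1d2 and -0.65 ± 0.06 (adjusted p = 1.57e-14) for Rora. None of the 3 reached 2-fold, as 0.872% of all genes did.

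Rorb was low everywhere. Over all 210 libraries it stayed between 0.1165 and 0.736 FPKM, under the mean of 1 FPKM required of the other genes tested. Its median was 0.187 FPKM in WT AM, 0.253 in Bmal1-/- AM, 0.222 in WT PM and 0.223 in Bmal1-/- PM, and the groups overlapped in both. The highest AM value, 0.692 FPKM, came from the WT library at CT36, which is also the shallowest. At 37 °C the medians were 0.569 in WT and 0.352 in Bmal1-/-, with Bmal1-/- lower at 23 of 24 matched times but overlapping ranges. Fitted without the filter on low values, the log2 difference of Bmal1-/- from WT was 0.03 ± 0.02 (SE, adjusted p = 0.26) over AM and PM. It was -0.06 ± 0.02 (adjusted p = 0.0235) at 27 °C, -0.12 ± 0.02 (adjusted p = 1.05e-05) at 32 °C and -0.22 ± 0.02 (adjusted p = 1.15e-14) at 37 °C. None reached 2-fold on this scale, which compresses differences between values under 1 FPKM.

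**Figure D2:**
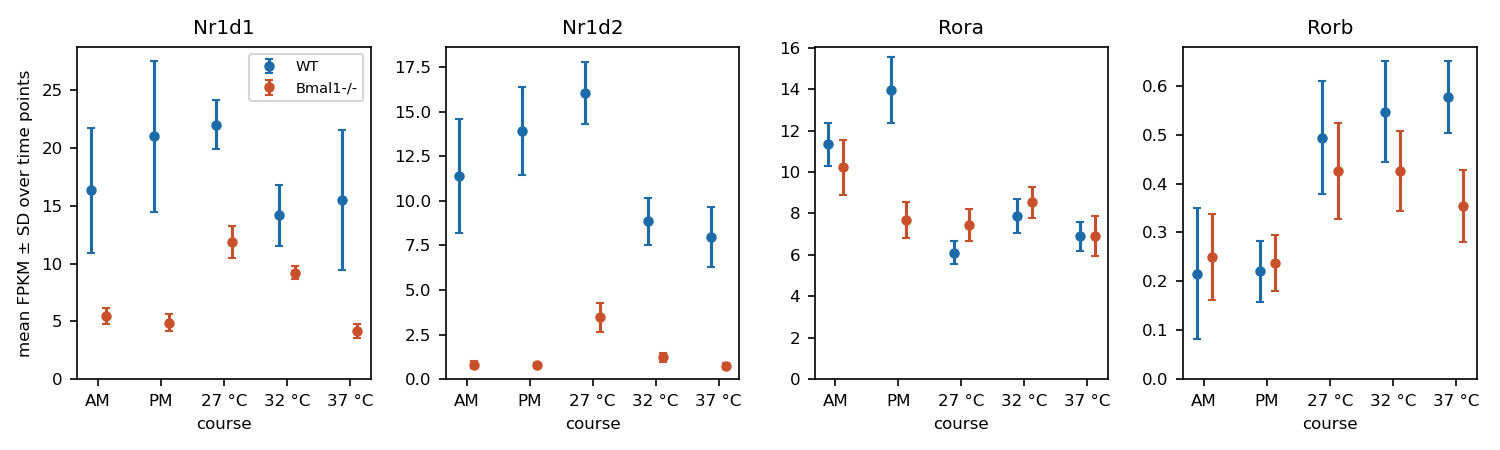
Mean FPKM of each gene (y axis, from 0, 1 scale per gene) in the 5 courses (x axis); bars are the SD over 17, 23 or 24 time points. Nr1d1 and Nr1d2 sit lower in Bmal1-/- in all 5 courses, Rora is apart only in PM, and Rorb stays under 1 FPKM.

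Across the 10 courses the mean level of Nr1d1 was highest in WT at 27 °C, at 22.02 ± 2.13 FPKM (SD, n = 23), followed by WT PM (21.01 ± 6.53, n = 17), WT AM (16.3 ± 5.37), WT at 37 °C (15.5 ± 6.04, n = 24) and WT at 32 °C (14.2 ± 2.64). No neighbours among these 5 differed by more than the larger SD. Next came Bmal1-/- at 27 °C (11.8 ± 1.37) and at 32 °C (9.22 ± 0.531), each apart from the next by more than the larger SD. Bmal1-/- AM (5.45 ± 0.659), PM (4.89 ± 0.712) and 37 °C (4.17 ± 0.591) closed the order, and among these 3 the step from PM to 37 °C, of 0.718, just exceeded the larger SD of 0.712.

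Nr1d2 had much the same order: WT at 27 °C (16.04 ± 1.73 FPKM), WT PM (13.9 ± 2.48), WT AM (11.4 ± 3.18), WT at 32 °C (8.86 ± 1.32) and WT at 37 °C (7.97 ± 1.66), again with no neighbours apart by more than the larger SD. Bmal1-/- at 27 °C (3.46 ± 0.820) and 32 °C (1.22 ± 0.246) followed, clear of each other and of the last 3 courses, Bmal1-/- AM (0.804 ± 0.194), PM (0.775 ± 0.142) and 37 °C (0.734 ± 0.172). Rora ranged from WT PM (13.96 ± 1.58 FPKM), WT AM (11.3 ± 1.03) and Bmal1-/- AM (10.2 ± 1.31) down to WT at 27 °C (6.11 ± 0.562). Its steps below WT PM, below Bmal1-/- AM and above WT at 27 °C exceeded the larger SD, and the others did not. The AM and PM courses and the temperature courses are separate sets in the labels, and levels between the sets were not tested.

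The balance of repressor to activator transcripts shifted with these levels. At 37 °C the median ratio of Nr1d1 to Rora was 2.01 in WT and 0.593 in Bmal1-/-, and in PM it was 1.52 and 0.632. In AM it was 1.445 and 0.546. At 27 °C it was 3.56 and 1.685, and at 32 °C 1.82 and 1.09. In Bmal1-/- the ratio ran from 1.16 to 2.05 at 27 °C and from 0.926 to 1.24 at 32 °C. Nr1d1 thus exceeded Rora in every Bmal1-/- library at 27 °C, but not in every one at 32 °C. The median ratio of Nr1d1 to Nr1d2 was 1.91 in WT and 5.67 in Bmal1-/- at 37 °C, and 1.41 and 3.68 at 27 °C, which shows the stronger reduction of Nr1d2.

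At each temperature, too, Nr1d2 was called lower in Bmal1-/-, while Nr1d1 was called lower only at 37 °C. At 37 °C Nr1d1 ran from 7.62 to 29.2 FPKM in WT (median 13.9) and from 3.32 to 5.42 in Bmal1-/- (median 4.37), and Nr1d2 from 4.44 to 10.9 (median 8.07) and from 0.429 to 1.14 (median 0.740). Neither gene's groups overlapped. The log2 differences were -1.59 ± 0.04 (SE, adjusted p = 9.19e-71) for Nr1d1 and -2.35 ± 0.04 (adjusted p = 5.64e-84) for Nr1d2. For Rora the difference was -0.00 ± 0.04 (adjusted p = 0.968). Of all genes 13.9% were called at 37 °C.

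At 32 °C Nr1d1 overlapped between the genotypes: it ran from 9.23 to 18.1 FPKM in WT (median 13.99) and from 8.41 to 10.4 in Bmal1-/- (median 9.10), and was lower in Bmal1-/- at 23 of 24 matched times. The log2 difference of -0.55 ± 0.04 (adjusted p = 1.62e-26) was under 2-fold. Nr1d2 ran from 6.88 to 12.1 FPKM in WT (median 8.82) and from 0.737 to 1.94 in Bmal1-/- (median 1.28), a log2 difference of -2.15 ± 0.04 (adjusted p = 1.73e-79). Of all genes 14.5% were called at 32 °C.

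At 27 °C Nr1d1 ran from 18.96 to 26.7 FPKM in WT (median 21.6) and from 9.37 to 13.8 in Bmal1-/- (median 12.1). The groups were apart, but the log2 difference of -0.84 ± 0.04 (adjusted p = 4.07e-41) was again under 2-fold. Nr1d2 ran from 12.4 to 18.5 FPKM in WT (median 16.1) and from 2.33 to 4.95 in Bmal1-/- (median 3.44), a log2 difference of -1.95 ± 0.05 (adjusted p = 1.78e-73). Rora was slightly higher in Bmal1-/- at 27 °C, at a median of 7.36 FPKM against 6.10, with overlapping groups and a log2 difference of 0.25 ± 0.04 (adjusted p = 2.64e-09) that was not called. Of all genes 13.5% were called at 27 °C.

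**Figure D3:**
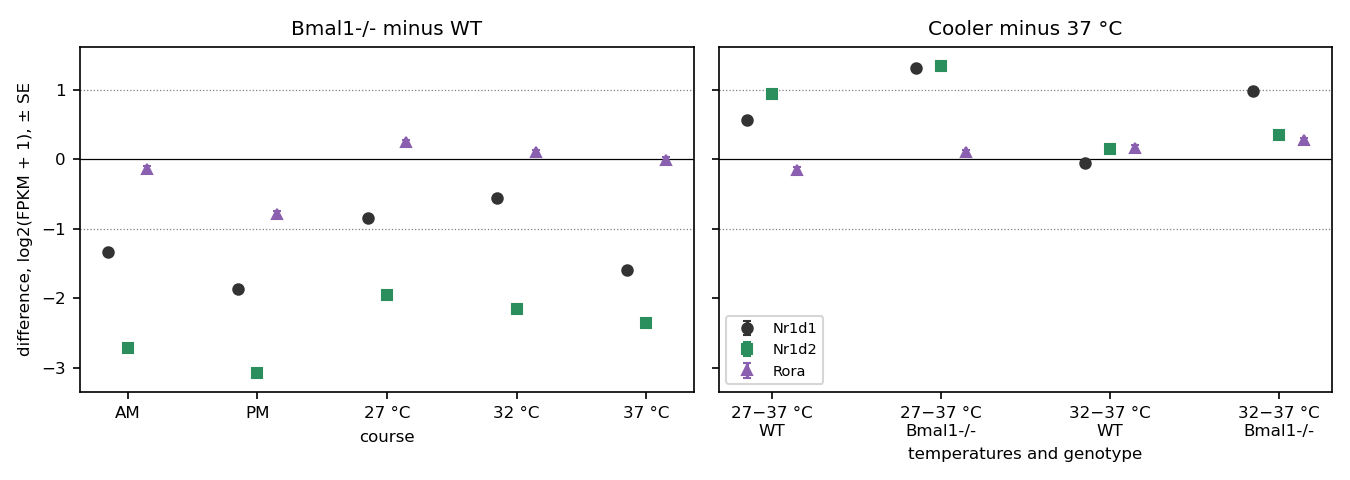
Differences in level on the log2(FPKM + 1) scale (y axis, ± SE from the fit) for Bmal1-/- minus WT in each course (left) and for 27 or 32 °C minus 37 °C in each genotype (right); dotted lines mark 2-fold. Nr1d2 lies below -1.9 in all 5 courses, Nr1d1 lies between the 2-fold lines at 27 and 32 °C, and both genes lie above the upper line for 27 against 37 °C in Bmal1-/-.

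Both REV-ERB transcripts were higher in the 27 °C course than in the 37 °C course of Bmal1-/- cells. Each genotype had 1 course per temperature, so temperature and course cannot be told apart in any of these comparisons. At 27 °C against 37 °C, Nr1d1 was higher in Bmal1-/- at 23 of 23 matched times, with a median ratio of 2.83. Nr1d2 was higher at 23 of 23 with a median ratio of 5.12. Neither gene's groups overlapped. The log2 differences were 1.32 ± 0.04 (SE, adjusted p = 3.14e-61) for Nr1d1 and 1.35 ± 0.05 (adjusted p = 9.07e-57) for Nr1d2, and 11.7% of all genes were called in this comparison. With 0.1 FPKM added they were 1.49 and 2.09, since adding 1 FPKM compresses the change of Nr1d2, whose median in Bmal1-/- at 37 °C was 0.740 FPKM. Rora differed by 0.10 ± 0.04 (adjusted p = 0.00909), under 2-fold. The median of all genes was itself 0.21 higher at 27 than at 37 °C in both genotypes, so differences should be read against that shift. After scaling that removes it, Nr1d1 differed by 1.11 and Nr1d2 by 1.21, still called, while Rora turned to -0.11 (adjusted p = 0.00494).

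In WT the same 2 genes were higher at 27 °C by less. Nr1d2 was higher at 23 of 23 matched times, with no overlap between the groups and a log2 difference of 0.94 ± 0.05 (adjusted p = 2.36e-41), just under 2-fold. Nr1d1 was higher at 18 of 23 with overlapping groups, at a log2 difference of 0.57 ± 0.04 (adjusted p = 2.95e-27). Rora was lower by 0.15 ± 0.04 (log2 difference of -0.15, adjusted p = 0.000176). None of the 3 was called, against 13.6% of all genes. With 0.1 FPKM added, Nr1d2 differed by 1.02 and was called. After the scaling that removes the shift of all genes, the differences in WT were 0.34 for Nr1d1, 0.72 for Nr1d2 and -0.36 for Rora.

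At 32 °C against 37 °C no member was called in either genotype, where 3.29% of all genes were called in WT and 2.71% in Bmal1-/-. In Bmal1-/-, however, Nr1d1 was close to the limit. It was higher at 24 of 24 matched times with no overlap between the groups, a median ratio of 2.21 and a log2 difference of 0.99 ± 0.04 (adjusted p = 3.12e-48), and it was called with 0.1 FPKM added (1.14) and on the second day alone (1.01). In WT, Nr1d1 was higher at 11 of 24 matched times, at a log2 difference of -0.05 ± 0.04 (adjusted p = 0.257). The log2 difference of Nr1d2 was 0.35 ± 0.04 in Bmal1-/- and 0.15 ± 0.04 in WT, and that of Rora was 0.27 ± 0.04 and 0.17 ± 0.04. The median of all genes shifted by 0.13 in both genotypes. After scaling, Nr1d1 differed by 0.87 in Bmal1-/- and -0.18 in WT, Nr1d2 by 0.29 and 0.03, and Rora by 0.15 and 0.05. With 0.1 FPKM added, Nr1d2 differed by 0.67 in Bmal1-/-, which is under 2-fold.

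The difference between the temperature courses thus was not the same in the 2 genotypes, by a test of the difference itself. With 1 course per temperature and genotype, this test cannot tell temperature from course. From 37 to 27 °C the difference of Bmal1-/- exceeded that of WT by 0.75 ± 0.06 (SE, adjusted p = 2.81e-24) for Nr1d1, 0.41 ± 0.06 (adjusted p = 1.07e-08) for Nr1d2 and 0.25 ± 0.05 (adjusted p = 1.56e-05) for Rora. None reached 2-fold, and 4.43% of all genes did. With 0.1 FPKM added in place of 1, the excess of Nr1d2 was 1.07 and was called. From 37 to 32 °C, a comparison added after the values had been seen, the excess was 1.04 ± 0.06 (adjusted p = 3.13e-35) for Nr1d1, which was called, as were 1.49% of all genes. It was 0.21 ± 0.06 (adjusted p = 0.00335) for Nr1d2 and 0.11 ± 0.05 (adjusted p = 0.0773) for Rora. On the first day alone the excess for Nr1d1 was 0.95, which is under 2-fold.

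In WT the 2 REV-ERB transcripts cycled in AM, PM and at 37 °C. A course was called rhythmic for a gene at an adjusted p under 0.05 for its 24 h cosine and sine, and the amplitude is the log2 distance from the mid-level to the peak. In WT AM, Nr1d1 was lowest at CT9 (8.40 FPKM) and highest at CT21 (23.4 FPKM) on the first day, and lowest at CT36 (10.7) and highest at CT42 (22.98) on the second. Its fitted amplitude was 0.63 ± 0.05 (SE, adjusted p = 4.61e-15), with a peak at CT 20.3 ± 0.26. Nr1d2 was lowest at CT12 (5.59) and highest at CT0 (16.3) and again lowest at CT36 (6.86) and highest at CT24 (14.95). Its amplitude was 0.50 ± 0.05 (adjusted p = 2.56e-10), with a peak at CT 23.7 ± 0.41. Of all genes 3.85% were called in WT AM.

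In WT PM the same genes peaked at other labelled times. Nr1d1 was highest at CT6 (31.1 FPKM) and CT30 (30.7 FPKM) and lowest at CT21 (10.97) and CT24 (15.96), with an amplitude of 0.62 ± 0.05 (adjusted p = 1.48e-14) and a peak at CT 7.87 ± 0.26. Nr1d2 had an amplitude of 0.29 ± 0.05 (adjusted p = 0.00027) and a peak at CT 9.48 ± 0.66. Of all genes 5.61% were called in WT PM. The peaks of PM and AM lay 11.6 ± 0.37 h apart for Nr1d1 and 9.76 ± 0.77 h apart for Nr1d2. A test of AM against PM called both genes (adjusted p = 1.23e-21 and 9.41e-12), as it did 2.97% of all genes, and did not call Rora (adjusted p = 0.408).

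At 37 °C the WT course swung most for Nr1d1, from 7.62 FPKM at CT12 to 29.2 at CT24, with an amplitude of 0.68 ± 0.04 (adjusted p = 3.62e-29) and a peak at CT 23.1 ± 0.24. Nr1d2 ran from 4.44 FPKM at CT10 to 10.9 at CT0, with an amplitude of 0.33 ± 0.04 (adjusted p = 1.96e-07) and a peak at CT 0.28 ± 0.55. Of all genes 4.92% were called. Nr1d2 followed Nr1d1 in each of the 4 rhythmic WT courses, by 3.46 ± 0.48 h in AM, 1.61 ± 0.71 h in PM, 1.16 ± 0.60 h at 37 °C and 4.56 ± 1.03 h at 32 °C. These SEs treat the genes as independent although they come from the same libraries.

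**Figure D4:**
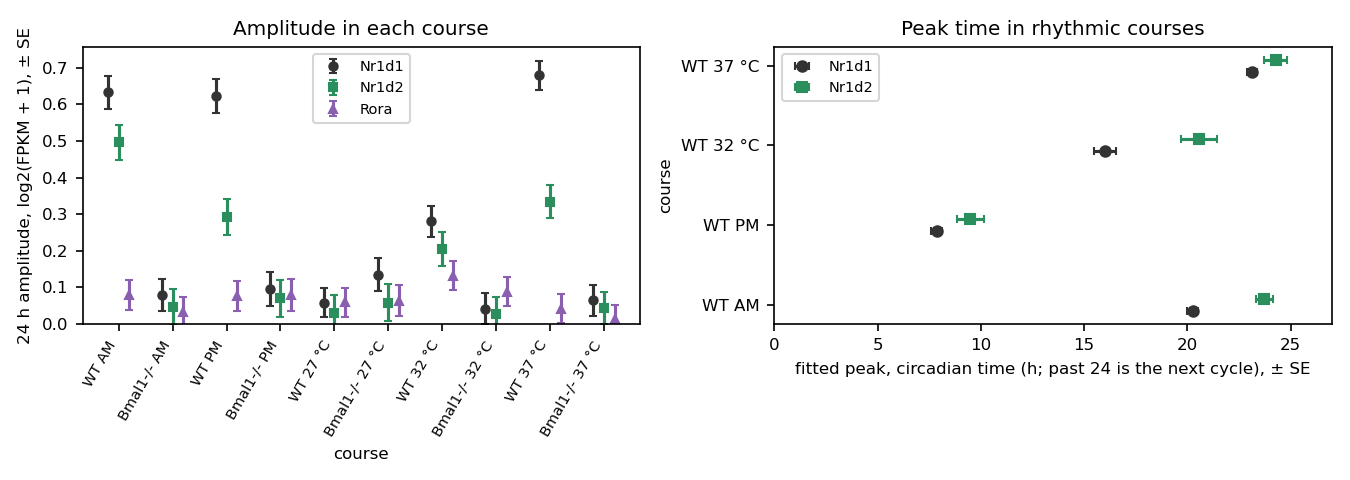
Left, the fitted 24 h amplitude (y axis, log2(FPKM + 1), ± SE) of 3 genes in the 10 courses (x axis). Right, the fitted peak in circadian time (x axis, h, ± SE) of Nr1d1 and Nr1d2 in the 4 WT courses (y axis) where both were called rhythmic. Amplitudes of Nr1d1 exceed 0.6 in WT AM, PM and 37 °C, and all Bmal1-/- amplitudes stay under 0.14.

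Fitted amplitudes were lower in the cooler WT courses; the difference between temperatures was not tested. At 32 °C, Nr1d1 ran from 9.23 FPKM at CT4 to 18.1 at CT16, with an amplitude of 0.28 ± 0.04 (adjusted p = 6.74e-05) and a peak at CT 16.004 ± 0.54, and Nr1d2 had an amplitude of 0.21 ± 0.05 (adjusted p = 0.0398) and a peak at CT 20.6 ± 0.88. Only 0.253% of all genes were called in that course. The call of Nr1d2 was lost with 0.1 FPKM added (adjusted p = 0.323). At 27 °C neither was called. Nr1d1 ran from 18.96 FPKM at CT28 to 26.7 at CT8, with an amplitude of 0.06 ± 0.04 (adjusted p = 0.742), and Nr1d2 had an amplitude of 0.03 ± 0.05 (adjusted p = 0.954), while 2.15% of all genes were called. The SD of Nr1d1 was 9.68% of its mean in that course and 38.9% in WT at 37 °C.

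Periods of 18 to 36 h, in steps of 0.25 h, were compared as a description. The cosine that took up most of the detrended variance of Nr1d1 had a period of 24.5 h in WT AM (24 to 24.75 h when each time point was left out in turn), 24.25 h in WT PM (24 to 24.5 h) and 24.5 h in WT at 37 °C (24.25 to 25 h). At 32 °C it had a period of 22 h (21.75 to 22.25 h), and took up 82.4% of that variance against 72.5% at 24 h. Nr1d2 gave 23.5, 24.75, 24.5 and 22.25 h in the same 4 courses, with a range of 21.5 to 22.5 h at 32 °C. At 27 °C the best period of Nr1d1 was 31.75 h (28.25 to 34.25 h) and took up 30.2% of the variance, and that of Nr1d2 took up only 2.47%. A course of 46 h holds fewer than 2 cycles of the longer periods, so these values carry little precision. With a period of 22 h in place of 24 h the fitted peak of Nr1d1 in WT PM moved from CT 7.87 to CT 9.18, and with 26 h to CT 6.79. Neither gene's peak at 32 °C moved by more than 1 SE under either period. Another period moves a fitted peak more when that peak lies further from the middle of the course. These moves therefore do not compare the courses.

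**Figure D5:**
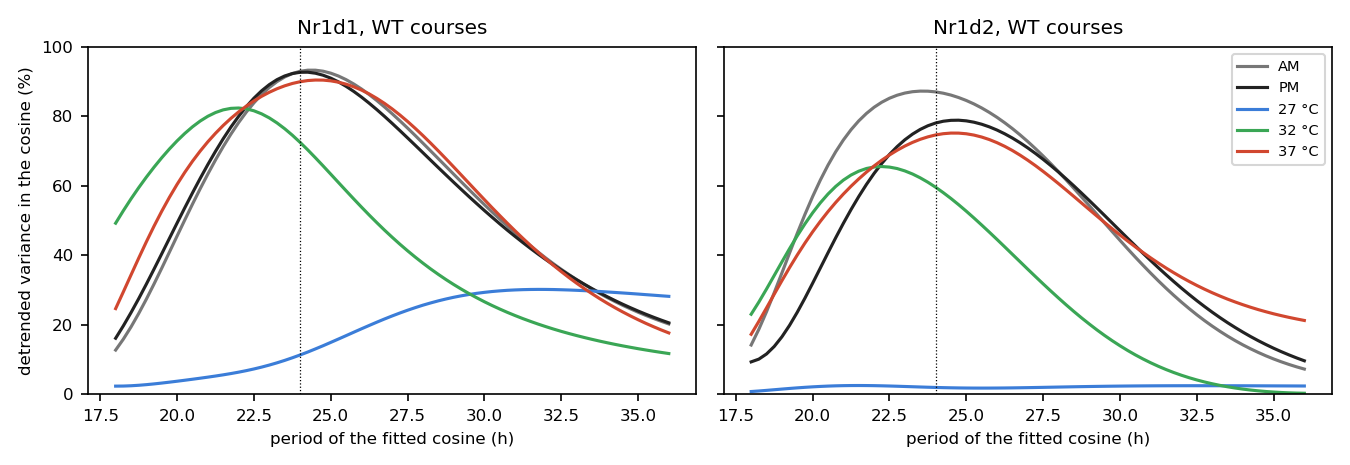
Share of the detrended variance (y axis, %) taken up by a cosine of each period from 18 to 36 h (x axis) for Nr1d1 and Nr1d2 in the 5 WT courses; the dotted line marks 24 h. The curves of AM, PM and 37 °C peak between 23.5 and 24.75 h, those of 32 °C at 22 and 22.25 h, and those of 27 °C stay low.

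In Bmal1-/- no member was called rhythmic in any of the 5 courses. The amplitudes of Nr1d1 were 0.08 ± 0.04 in AM, 0.10 ± 0.05 in PM, 0.13 ± 0.05 at 27 °C, 0.04 ± 0.04 at 32 °C and 0.06 ± 0.04 at 37 °C, with adjusted p from 0.0996 (27 °C) to 0.973 (32 °C). Those of Nr1d2 were at most 0.07 and those of Rora at most 0.09. Adding 1 FPKM compresses the amplitudes of Nr1d2 here, which averaged 0.804 FPKM in AM, 0.775 in PM and 0.734 at 37 °C. Its Bmal1-/- amplitudes are thus not directly comparable with those of WT. The shares of all genes called in these Bmal1-/- courses were 3.4% in AM, 3.02% in PM, 9.85% at 27 °C, 2.06% at 32 °C and 8.46% at 37 °C. With the CT14 pair kept as labelled, Nr1d1 (amplitude 0.21, adjusted p = 0.00731) and Nr1d2 (0.25, adjusted p = 0.0452) were called at 27 °C.

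The difference in rhythm between the genotypes was tested directly. Over AM and PM it was called for Nr1d1 (adjusted p = 1.22e-12) and Nr1d2 (adjusted p = 7.76e-06), where only 0.18% of all genes were called. At 37 °C it was called for both (adjusted p = 4.05e-18 and 0.000348), with 6.1% of all genes. At 32 °C it was called for Nr1d1 (adjusted p = 0.0252) and not for Nr1d2 (adjusted p = 0.983), with 0.023% of all genes, and at 27 °C for neither (adjusted p = 0.459 and 0.838), with 1.5%. The 32 °C call was lost with a period of 22 h (adjusted p = 0.102). Rora was not called in any of these 4 tests. For Nr1d2 these tests carry the same compression of low Bmal1-/- values.

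Some levels differed between the days of a course. Nr1d2 of Bmal1-/- at 27 °C averaged 4.08 ± 0.672 FPKM (SD, n = 11) on the first day and 2.89 ± 0.447 (n = 12) on the second, a ratio of 0.709, whereas the ratio in WT at 27 °C was 0.964. In Bmal1-/- AM, Nr1d1 and Rora had ratios of 0.856 and 0.849 of the second day to the first. No test was made of these differences, and each rhythm fit includes a linear time term.

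Among clock genes that are known to be driven through REV-ERB and ROR elements (Arntl, Clock, Npas2, Cry1 and Nfil3), 2 of 5 were called higher in Bmal1-/- over AM and PM and none lower, with a list median of -0.05 beside -0.00 for all genes, of which 14.5% were called in either direction. The called genes were Cry1, a repressor of BMAL1 and CLOCK (log2 difference 1.88 ± 0.02), and Npas2, a stand-in for CLOCK (1.40 ± 0.05). Arntl differed by -0.05 ± 0.02 (adjusted p = 0.056). Clock was not called over AM and PM, but it was lower in Bmal1-/- with no overlap between the groups in any of the 5 courses. Its median was 12.5 FPKM in WT AM and 6.27 in Bmal1-/- AM, and 14.9 and 6.28 in PM. In PM alone 2 of the 5 genes were called higher and 1 lower, beside 15.6% of all genes. At 27 °C 2 of 5 were called higher, with a list median of 0.62, and at 32 and 37 °C 1 of 5, in both cases Cry1 (1.63 ± 0.03 and 1.92 ± 0.03), beside 13.5%, 14.5% and 13.9% of all genes. In WT, 4 of 5 were called rhythmic in AM, in PM and at 37 °C, beside 3.85%, 5.61% and 4.92% of all genes. Arntl peaked at CT 12.01 in WT AM, CT 0.51 in WT PM and CT 14.6 in WT at 37 °C, where Nr1d1 peaked at CT 20.3, 7.87 and 23.1. In Bmal1-/- 1 of 5 was called at 27 °C (Npas2) and 1 of 5 at 37 °C (Clock), beside 9.85% and 8.46% of all genes, and none was called in the other 3 courses.

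Other clock genes behaved unevenly. Of the 10 listed (Per1, Per2, Per3, Cry2, Dbp, Tef, Hlf, Bhlhe40, Bhlhe41 and Ciart), 1 was called higher and 2 lower in Bmal1-/- over AM and PM, with a list median of 0.13 and beside 14.5% of all genes called. The activators of D-box elements include Hlf, which was lower (log2 difference of -3.19 ± 0.09). The period gene Per3 was also lower (-1.77 ± 0.04), and the repressor Cry2 was higher (1.12 ± 0.02). At 27 °C 5 of 10 were called lower and none higher, and at 37 °C 3 lower and 1 higher, beside 13.5% and 13.9% of all genes. At 27 °C against 37 °C, 7 of 10 were called higher in WT, beside 13.6% of all genes called there in either direction. In Bmal1-/- 1 of 10 was called higher, namely Per1 (1.12 ± 0.05), which is near the 11.7% of all genes called.

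Genes for proteins through which the receptors act were also tested. Tbl1xr1, a subunit of the REV-ERB corepressor complex, was not called over AM and PM and was called lower at 27 °C (-1.64 ± 0.06) and 32 °C (-1.03 ± 0.06). Of 6 tested ROR coactivators, 1 was called lower over AM and PM, the metabolic coactivator Ppargc1a (-1.72 ± 0.04), and it was also called at 32 °C (-1.39 ± 0.05) and 37 °C (-1.12 ± 0.05). With 14.5% of all genes called over AM and PM, 1 of 6 is near the background and is no result about the coactivators as a group. Among 7 genes for kinases and ubiquitin ligases that set REV-ERB stability, Siah2 was called lower over AM and PM (-1.03 ± 0.03) and Mycbp2 higher (1.03 ± 0.03), beside 14.5% of all genes. In AM alone 2 of the 7 were called higher and 2 lower, beside 14.6% of all genes. In PM alone none of the 7 was called, beside 15.6%, and at 27, 32 and 37 °C none was called lower. At 27 °C 1 of the 7 was called higher and at 37 °C 2, beside 13.5% and 13.9% of all genes.

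The thyroid hormone receptor genes next to the REV-ERB genes differed in opposite directions over AM and PM: Thra by 0.84 ± 0.02, under 2-fold, and Thrb, a neighbour of Nr1d2, by -2.54 ± 0.02.

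The genes whose course was most like that of each member were ranked by Pearson's r of log2(FPKM + 1) over the 210 libraries, after removal of each course's mean and linear trend, among 13163 other genes that averaged 1 FPKM or more. For Nr1d1 they included Nr1d2 (r = 0.581), Dbp (0.55) and Klhl21 (0.485), and the most opposite were Cry1 (-0.595) and Errfi1 (-0.424). For Nr1d2 they were Dbp (0.687), Nr1d1 (0.581), Per3 (0.534) and Tef (0.47), and the most opposite were Arntl (-0.578) and Avpr1a (-0.497). For Rora they were Tnrc6b (0.663), Lpp (0.655), Lyst (0.653) and Vps13c (0.648), none of them a clock gene, and the most opposite were Psma7 (-0.542) and Ssr2 (-0.52). Within the 105 WT libraries alone the r of Nr1d1 with Nr1d2 was 0.681, and within the 105 Bmal1-/- libraries it was 0.144. Libraries of a course are successive time points and vary in depth, so these r values are a description.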

How the data were processed

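Poly(A) RNA of 212 libraries was sequenced as 101-base single-end reads with a stranded kit, per the labels. The deposited values are FPKM per gene. TopHat2 2.1.0, TopHat, Cuffdiff and GRCm38 are named in the submitters' processing notes; the sources used here give neither the annotation nor the strand setting. Symbols came from an annotation of that build, which matched 47217 of 47631 gene IDs. In 1357 genes used to estimate depth, 94.8% of low values lay within 0.15 of a whole read.

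Values were transformed as log2(FPKM + 1), and genes averaging 1 FPKM or more were tested by limma 3.58.1 (R 4.3.3; eBayes with trend, Benjamini-Hochberg adjustment over all genes tested, two-sided). The AM and PM courses (13307 genes) and the temperature courses (13031 genes) were fitted separately. Each course had an intercept, a linear time term and a 24 h cosine and sine, whose joint moderated F test gave rhythm calls. With 1 library per time point, p-values reflect library-to-library scatter within courses and say nothing of cultures or animals. The labels give 3 wells per time point; pooling is not stated. The code was tested on simulated data.

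Named are the 4 members, Arntl, Thra, up to 4 genes per list with the largest differences, and the 4 most and 2 least alike genes. Members and lists were chosen with earlier results of these data known.
The comparisons of PM with AM and of 32 with 37 °C between genotypes, and AM and PM taken separately, were added after the values were seen. The CT14 pair at 27 °C was left out of all fits. Alternatives were another pseudocount, no filter, median-of-ratios scaling, no intensity trend, no linear term, other periods, each day alone, the time point as a block, and the shallowest library left out or the CT14 pair kept. Some results for genes of these lists are not reported here.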

Additional observations from a re-analysis of the deposited data

Results flagged for a closer look

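The level difference between the genotypes was not the same in all courses, by tests of the difference itself, in 8 cases. These cases were taken at limma's adjusted p under 0.05 alone, which most genes passed. From 37 to 27 °C 8976 of 13031 genes did, from 37 to 32 °C 7324 of 13031, and for PM against AM 7812 of 13307. The count of cases is therefore no trait of these genes. From 37 to 27 °C the change of Bmal1-/- minus that of WT was 0.75 for Nr1d1, 0.41 for Nr1d2 and 0.25 for Rora, on the log2(FPKM + 1) scale. From 37 to 32 °C it was 1.04 for Nr1d1 and 0.21 for Nr1d2. The difference of Bmal1-/- from WT in PM minus that in AM was -0.53 for Nr1d1, -0.36 for Nr1d2 and -0.65 for Rora. The 32 °C and PM against AM comparisons were added after the values had been seen.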

How the results depend on the processing

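For Nr1d1, Nr1d2 and Rora, 84 results were recomputed under the alternatives. Of 711 values, 692 kept their side of the threshold without a counted reversal. Outside the rhythm results, a change of sign counted only where either value was called or both adjusted p were under 0.05. Rhythm results were not checked for direction. With 0.1 FPKM added, Nr1d1 at 32 against 37 °C in Bmal1-/- (1.14), Nr1d2 at 27 against 37 °C in WT (1.02) and the excess of Nr1d2 in Bmal1-/- from 37 to 27 °C (1.07) became called, and the WT rhythm of Nr1d2 at 32 °C was lost (amplitude 0.23). That rhythm was also lost without the linear time term (0.19), with a period of 26 h (0.18) and with the CT14 pair kept (0.21). Kept as labelled, the CT14 pair gave calls at 27 °C for the Bmal1-/- rhythm of Nr1d1 (0.21) and Nr1d2 (0.25) and for its difference from WT (0.27 and 0.40), and ended the call of the rhythm difference for Nr1d1 at 32 °C (0.32) and Nr1d2 at 37 °C (0.38). The former was also lost with periods of 22 h (0.34) and 26 h (0.27). The second day alone gave a call for Nr1d1 at 32 against 37 °C in Bmal1-/- (1.01), the first day alone one for Nr1d2 at 27 against 37 °C in WT (1.02), and the first day ended that of the 32 °C excess of Nr1d1 (0.95). Median-of-ratios scaling reversed Rora at 27 against 37 °C in Bmal1-/- (-0.11). Beyond the pair's own values and the alternatives' construction, the cause was not tested.

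With the time point as a block shared by courses (the paired fit, which has no rhythm terms), the level difference over AM and PM was -1.61 for Nr1d1, -2.90 for Nr1d2 and -0.46 for Rora, and no call of a member's level changed. Of 64 recomputed peak times, 10 moved by more than 1 SE, 8 of them with a period of 22 or 26 h and 2 without the linear time term. Peaks were compared within the first cycle of the fitted period, so moves with another period depend on the cycle compared. Of 237 counts over all genes, 42 moved by more than 1.5 times, among them the rhythm difference at 37 °C (795 genes, and 17 without the linear time term) and at 27 °C (196, and 2141 with the CT14 pair). The effect of depth on the members' values was not tested. Rorb stayed under 1 FPKM in every library.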
